A study of Mus musculus with 8 samples.

Results

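Fatty acid activation and oxidation genes were followed in single ERα vlVMH neurons, the estrogen receptor α neurons of the ventrolateral part of the ventromedial hypothalamus. They were taken as the genes of the deposited expression tables whose symbols begin with Cpt1, Cpt2, Acad, Hadh, Acox, Acsl, Acss, Acot, Ech1, Echs1, Ehhadh, Etfa, Etfb or Etfdh. This gave 46 members of 16599 gene names in all. The neurons came from female ERα-ZsGreen mice on a C57BL6/J background, in which the ERα promoter drives the green reporter ZsGreen, and each was recorded in a brain slice, collected by hand and sequenced as a library of its own (Patch-seq). GE (glucose-excited) neurons hyperpolarized and fired less when the bath went from 5 mM to 1 mM glucose, GI (glucose-inhibited) neurons depolarized and fired more, and both recovered at 5 mM, so that all neurons had seen both concentrations. Values below are those of GE neurons 1, 4, 6 and 8 and GI neurons 2, 5 and 7, with GI neuron 3 set apart for its low depth. The 8 neurons came from 2 mice and are not assigned to them, so that mouse and class cannot be told apart, each class stands as 1 sample, and no p-value is given; mice used with these lines were 12 to 20 weeks old, with no closer age given for these 2.

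A fatty acid is first joined to coenzyme A by an acyl-CoA synthetase, and long chains then cross into the mitochondrion as carnitine esters made and undone by the carnitine palmitoyltransferases. Inside, acyl-CoA dehydrogenases, enoyl-CoA hydratases, hydroxyacyl-CoA dehydrogenases and thiolases shorten the chain in repeated rounds (β-oxidation), while the electron transfer flavoprotein carries the electrons of the first step to the respiratory chain. Peroxisomes run a related pathway, and acyl-CoA thioesterases release the fatty acid again. Neurons are generally held to oxidize little fatty acid, although fatty acid metabolism in the ventromedial hypothalamus has been linked to nutrient sensing.

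All 46 members were listed above 0 in at least 1 of the 7 neurons. Of these, 34 (73.9%) were listed in all 7, against 61.4% of the genes listed in any. Levels are in FPKM, fragments scaled to the length of the gene and to the mapped fragments of the library. Class levels are means over neurons, and an unlisted gene counts as 0. A mean of both class levels of at least 5 FPKM was reached by 20 members (43.5%, against 38.7% of the genes listed in any). The other 26 had means between 0.000687 and 4.35 FPKM, and 10 of them stayed below 1 FPKM. For 3 of the 20, Acsl6, Hadha and Acot1, the GI level alone was under 5 FPKM, so that these passed through their GE level and were bound to be higher in GE neurons. The fragments that the authors' intervals imply for the 20 in a neuron ran from 1.99 to 1258 with a median of 72.3.

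The members differed far more from each other than between the classes. Etfb, Acot13, Acot7 and Ech1 together held 71.4% to 81.3% of the summed FPKM of the members in each neuron. That sum was 1540, 1271, 1330 and 1858 FPKM in GE neurons 1, 4, 6 and 8, and 1426, 1281 and 1681 FPKM in GI neurons 2, 5 and 7. It averaged 1500 FPKM over the GE and 1462 FPKM over the GI neurons, a log2 ratio of 0.04, and the classes overlapped. Summed by role, none of the 8 roles separated the classes either.

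**Figure D1:**
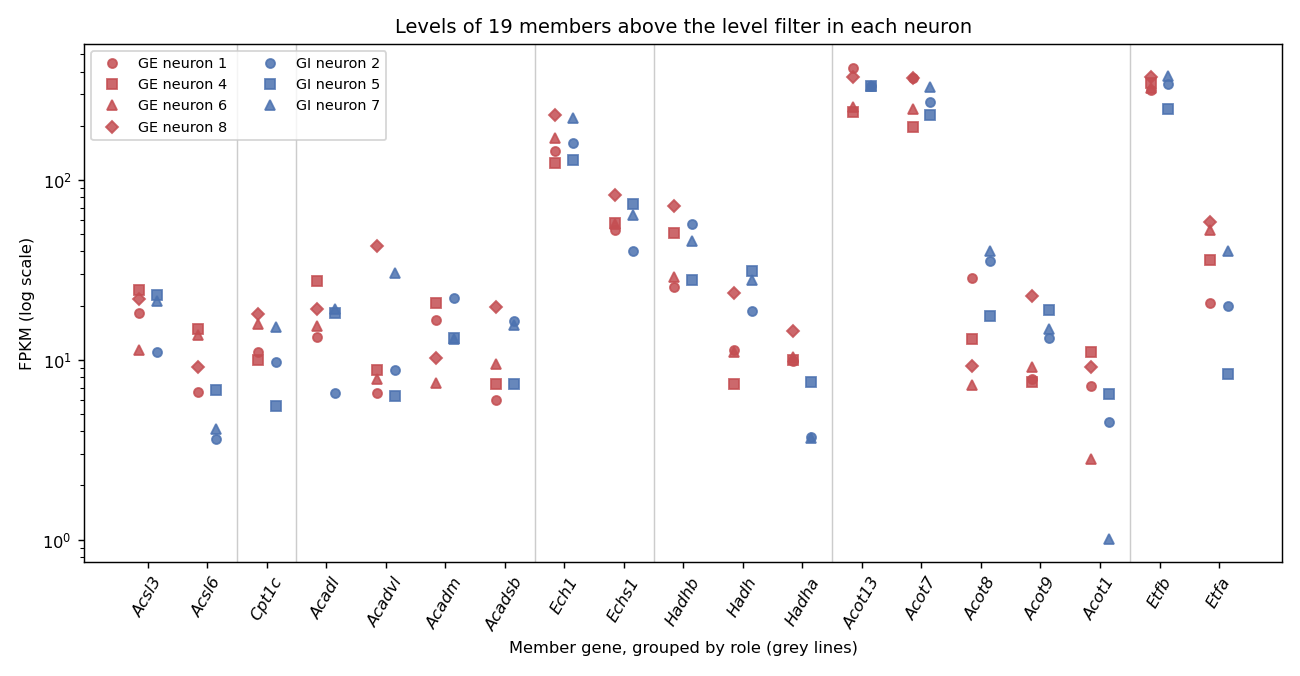
FPKM of 19 of the 20 members above the level filter in each neuron, on a log axis. Red marks are GE neurons 1, 4, 6 and 8, blue marks are GI neurons 2, 5 and 7, and grey lines part the roles. Acot13, Acot7, Etfb and Ech1 lie above 100 FPKM in all 7 neurons, and the classes overlap for every member drawn but Hadha.

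The comparison of GE with GI neurons asks whether the pathway differs between cells that answer a fall in glucose in opposite directions. Ratios divide the GE by the GI level on a log2 scale, each with 1 FPKM added, which understates the ratio of low genes. GE neurons had the higher level for 13 of the 20 members and GI neurons for 7, where 51.9% of the 6417 genes above the same filter were higher in GE neurons. Their median log2 ratio was 0.06, beside 0.02 over all these genes. Acsl6 and Hadha reached a 2-fold higher level in GE neurons (2 of 20, against 2.46% of all genes), and Acot8 a 2-fold higher level in GI neurons (1 of 20, against 2.17%). Every GE neuron lay above every GI neuron for Hadha alone (1 of 20, against 2.24%), and for no member did every GI neuron lie above every GE neuron (0 of 20, against 1.84%). Both Acsl6 and Hadha are among the members that passed the filter through their GE level. With 20 members each gene counts for 5% of a share, and the shares past 2-fold or without overlap lie within 2 genes of their background.

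**Figure D2:**
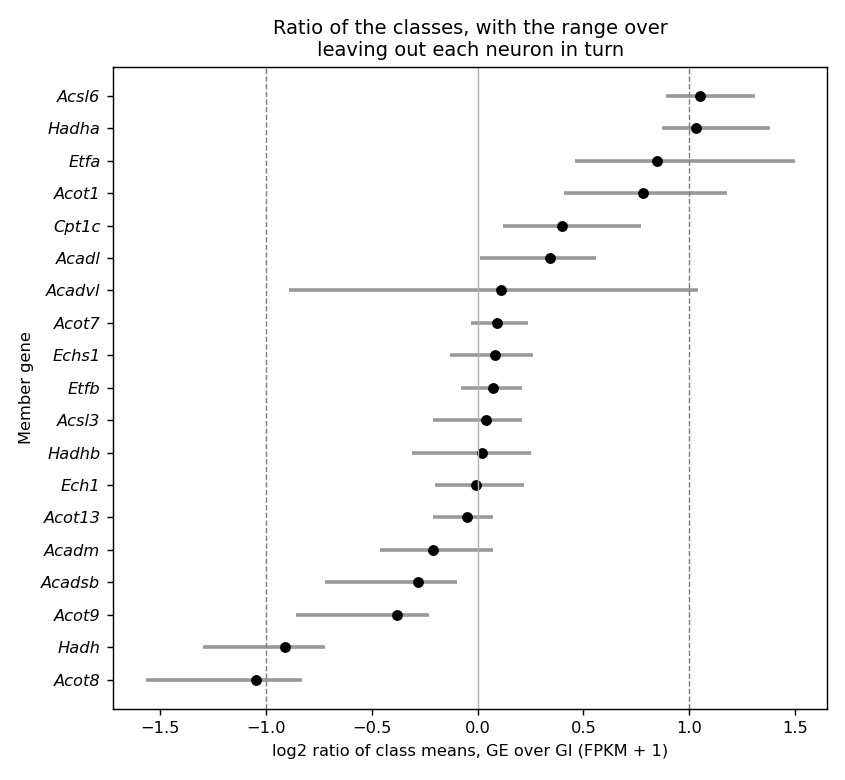
Log2 ratio of the GE over the GI level (black points) of 19 of the 20 members, with the lowest and highest ratio when each of the 7 neurons was left out in turn (grey bars). Dashed lines mark a 2-fold difference. Acsl6 and Hadha lie past it on the GE side and Acot8 on the GI side, and the bar of Acadvl runs from -0.89 to 1.04.

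Hadha was the member that parted the classes (1 of 20, against 2.24% of all genes), and it had passed the filter through its GE level. It encodes the α subunit of the mitochondrial trifunctional protein, which holds the long-chain enoyl-CoA hydratase and hydroxyacyl-CoA dehydrogenase, and Hadhb encodes the β subunit, the long-chain thiolase. Hadha (ENSMUSG00000025745) lies on chromosome 5 from 30118304 to 30155162 on the minus strand in GENCODE vM21 (GRCm38), and Hadhb (ENSMUSG00000059447) from 30155248 to 30184593 on the plus strand, so that the genes point away from each other.

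The sequence at the Hadhb start is shown because most of it belongs to the start windows of both subunit genes, whose levels behaved differently. In RefSeq (GRCm38.p6) the start sites are at 30154980 for Hadha and 30155253 for Hadhb, 273 bases apart. GENCODE has the Hadha gene begin at 30155162 instead, inside the Hadhb window, so that the windows and their overlap are those of RefSeq. The 300-base window of Hadhb is chr5:30155003-30155302 on the plus strand, from 250 bases before the start site to 50 after it. Its first 228 bases, in capitals, are also part of the window of Hadha on the other strand.

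Hadhb window: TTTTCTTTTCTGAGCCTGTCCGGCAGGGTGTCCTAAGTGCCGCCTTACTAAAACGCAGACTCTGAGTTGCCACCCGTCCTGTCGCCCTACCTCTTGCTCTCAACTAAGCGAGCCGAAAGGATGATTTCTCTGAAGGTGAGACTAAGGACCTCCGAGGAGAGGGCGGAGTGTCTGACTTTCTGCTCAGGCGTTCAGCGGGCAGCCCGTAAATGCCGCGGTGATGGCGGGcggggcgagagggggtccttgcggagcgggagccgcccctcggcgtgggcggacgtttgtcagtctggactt

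The letters GGGCGG of a GC box, searched on both strands, occur 1 time within the capitals. A GC box was found in 31 of the 47 RefSeq windows of 40 members (66%), against 35.7% of all 32851 windows. The CCAAT box (CCAAT) was in 26 of the member windows (55.3%, against 37.4%). The letters of an estrogen-related receptor site (TCAAGGTCA) were in 1, that of Acsl6 (2.13%, against 0.423%). The shorter AGGTCA, which that site contains, was in 12 (25.5%, against 16.3%). Such matches describe the letters of the windows only, and the background of all windows was not matched to genes listed in these neurons.

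Hadha had 9.82, 9.92, 10.4 and 14.5 FPKM in GE neurons 1, 4, 6 and 8, and 3.72, 7.53 and 3.65 FPKM in GI neurons 2, 5 and 7. The classes did not overlap, and GI neuron 5 was nearest to the GE neurons. The class means were 11.1 and 4.97 FPKM, a log2 ratio of 1.03, with 17.9 to 128 implied fragments behind each value. The authors' intervals, whose level is not stated, overlapped in 3 of the 12 pairs of a GE and a GI neuron, since that of GI neuron 5 reached 9.72 FPKM. Leaving out each neuron in turn gave ratios from 0.87 to 1.38, below 1 without GE neuron 8 (0.89), GI neuron 2 (0.88) or GI neuron 7 (0.87), and the classes did not overlap for Hadha in any of these. It was 0.95 with median-of-ratios scaling of the libraries. An exon of Garem2, named Fam59b in the tables, overlaps Hadha on the other strand, and the kit does not mark strand, so that reads of the 2 genes could be exchanged. Fam59b was at 1.84, 2.06, 3.38 and 4.66 FPKM in the GE neurons and at 0, 1.92 and 0 FPKM in the GI neurons, and its part in the Hadha values was not tested.

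Hadhb did not follow Hadha. It had 25.3, 50.7, 28.9 and 71.3 FPKM in GE neurons 1, 4, 6 and 8, and 56.9, 27.9 and 45.9 FPKM in GI neurons 2, 5 and 7. The classes overlapped over most of their range, with means of 44.0 and 43.6 FPKM and a log2 ratio of 0.02. Within a neuron Hadhb was 2.58 to 5.11 times Hadha in the GE neurons and 3.71 to 15.3 times in the GI neurons, with GI neuron 5 at 3.71 and the other GI neurons at 15.3 and 12.6.

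Hadh, the hydroxyacyl-CoA dehydrogenase for shorter chains, leaned the other way and is named here after its values were seen. It had 11.3, 7.34, 11.1 and 23.5 FPKM in the GE neurons and 18.6, 31.3 and 27.7 FPKM in the GI neurons. Only GE neuron 8 reached into the GI range. The class means were 13.3 and 25.9 FPKM, a log2 ratio of -0.91, and without GE neuron 8 the classes did not overlap and the ratio was -1.30.

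**Figure D3:**
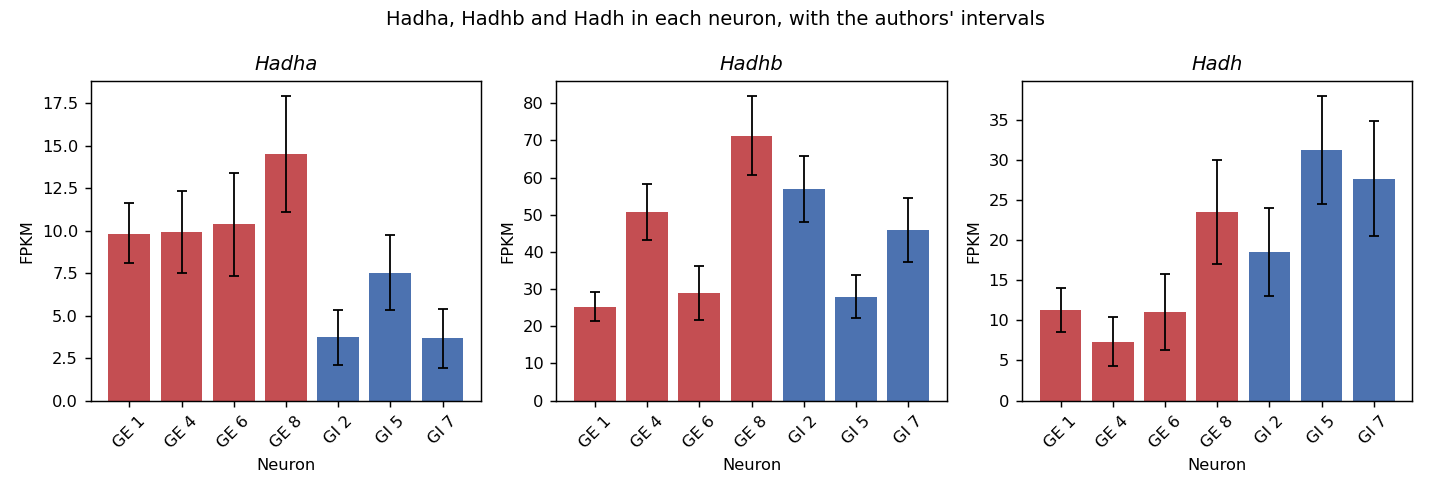
FPKM of Hadha, Hadhb and Hadh in each neuron, with the interval the authors gave for each value (its level is not stated). Red bars are GE neurons and blue bars GI neurons, and each panel has its own axis from 0. Hadha is at 9.82 FPKM or more in the GE neurons and at 7.53 FPKM or less in the GI neurons, Hadhb overlaps, and Hadh is lower in GE neurons 1, 4 and 6 than in any GI neuron.

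Among the acyl-CoA synthetases, Acsl6, a form of neural tissue that acts on long and polyunsaturated chains, was higher in GE neurons. It had 6.64, 14.9, 13.8 and 9.13 FPKM in GE neurons 1, 4, 6 and 8, and 3.64, 6.78 and 4.12 FPKM in GI neurons 2, 5 and 7. GE neuron 1 and GI neuron 5 were close to each other and made the classes overlap. The means were 11.1 and 4.85 FPKM, a log2 ratio of 1.05, which fell below 1 without GE neuron 4 (0.89), GE neuron 6 (0.94), GI neuron 2 (0.91) or GI neuron 7 (0.96). A noncoding antisense gene overlaps an exon of Acsl6. Acsl3, which activates long chains at the endoplasmic reticulum and lipid droplets, was the highest synthetase at 11.1 to 24.5 FPKM, with class means of 18.9 and 18.4 FPKM. The other 6 members of this role, which include the acetate-activating Acss genes, had class levels from 0.531 to 5.25 FPKM.

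The carnitine palmitoyltransferases were led by Cpt1c, the form of the brain, which sits in the endoplasmic reticulum and has little transferase activity. Cpt1c had 11, 9.95, 15.9 and 18.0 FPKM in the GE neurons and 9.77, 5.52 and 15.2 FPKM in the GI neurons, a log2 ratio of 0.40 with overlap. It made up 77.8% to 93.5% of the summed FPKM of the Cpt1 genes in a neuron. Cpt1a, the mitochondrial form that commits long chains to oxidation, had 0.449 to 3.75 FPKM, and Cpt1b, the form of muscle, was listed in GI neuron 2 only, at 0.228 FPKM. Cpt2, which rebuilds the acyl-CoA inside the mitochondrion, had 0.744 to 4.29 FPKM. Cpt1a, Cpt1b and Cpt2 are named here after their values were seen.

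Of the acyl-CoA dehydrogenases, which carry out the first step of each round and differ in the chain length they take, Acadl for long chains had the highest mean level. It had 13.4, 27.3, 15.4 and 19.1 FPKM in the GE neurons and 6.54, 18.2 and 19.2 FPKM in the GI neurons, a log2 ratio of 0.34 with overlap. Acadvl, for very long chains, varied within both classes instead and is named after its values were seen. It had 6.57, 8.73, 7.82 and 42.7 FPKM in GE neurons 1, 4, 6 and 8, and 8.79, 6.25 and 30.4 FPKM in GI neurons 2, 5 and 7. GE neuron 8 and GI neuron 7 were high, with intervals of 35.0 to 50.4 FPKM and 23.8 to 37.0 FPKM, while no interval of the other neurons reached above 12.1 FPKM. The class means of 16.5 and 15.2 FPKM therefore rest on a single neuron each: the log2 ratio of 0.11 became -0.89 without GE neuron 8 and 1.04 without GI neuron 7.

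Acads, for short chains, was also highest in these neurons, at 7.82 FPKM in GE neuron 8 and 2.96 FPKM in GI neuron 7, against at most 0.375 FPKM elsewhere, and did not pass the filter. Acadm for medium chains (7.44 to 22.0 FPKM) did not share this order, since GI neuron 2 and GE neuron 4 were its highest. The exons of Acadvl overlap Dvl2 on the other strand, which was at 0.376 FPKM or less in every neuron.

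**Figure D4:**
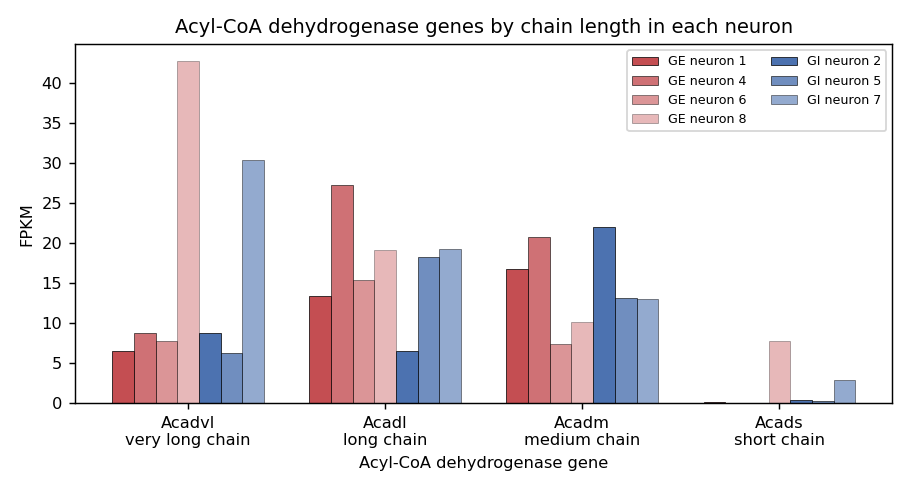
FPKM of the acyl-CoA dehydrogenase genes Acadvl, Acadl, Acadm and Acads in each neuron, in the order of the chain length they act on. Red bars are GE neurons and blue bars GI neurons. Acadvl stands at 42.7 FPKM in GE neuron 8 and 30.4 FPKM in GI neuron 7, Acads is highest in the same neurons, and Acadl and Acadm are not.

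Ech1, a dienoyl-CoA isomerase needed for unsaturated chains, had 145, 125, 172 and 231 FPKM in the GE neurons and 161, 129 and 220 FPKM in the GI neurons, a log2 ratio of -0.01. Echs1, the short-chain enoyl-CoA hydratase of the mitochondrion, ran from 40.0 to 82.9 FPKM with a log2 ratio of 0.08. Both overlapped between the classes, and GE neuron 8 was the highest for each. Ehhadh, the bifunctional enzyme of peroxisomes, was listed in 2 of the 7 neurons at up to 0.546 FPKM.

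The thioesterases were among the most abundant members. Acot7, the main cytosolic thioesterase of the brain, had 369, 196, 247 and 367 FPKM in the GE neurons and 270, 229 and 331 FPKM in the GI neurons. Acot13, which is found at mitochondria, had 422, 238, 253 and 375 FPKM in the GE neurons and 332, 335 and 333 FPKM in the GI neurons. Their log2 ratios were 0.09 and -0.05, and within a neuron Acot7 was 0.684 to 0.992 times Acot13.

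Acot8, a thioesterase of peroxisomes, had the largest shift to GI neurons among the 20. It had 28.6, 13.0, 7.20 and 9.18 FPKM in GE neurons 1, 4, 6 and 8, and 35.6, 17.5 and 40.2 FPKM in GI neurons 2, 5 and 7. GE neuron 1 lay above GI neuron 5, so that the classes overlapped. The means were 14.5 and 31.1 FPKM, a log2 ratio of -1.05, on 7.94 to 99.4 implied fragments a neuron. Without GE neuron 1 the classes did not overlap (-1.57), nor without GI neuron 5 (-1.33), while the ratio stayed above -1 without GE neuron 6 (-0.84), GE neuron 8 (-0.89), GI neuron 2 (-0.95) or GI neuron 7 (-0.83). Snx21, whose exons overlap Acot8 on the other strand, had 7.52 to 23.5 FPKM in the GE and 11.6 to 17.2 FPKM in the GI neurons, and its part in the Acot8 values was not tested.

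Acot1 to Acot6 lie side by side on chromosome 12 between 83987861 and 84111349 (GRCm38). They are related in sequence, so that the split of reads between them is uncertain. Their summed FPKM was 9.75, 15.1, 9.86 and 14.6 in the GE neurons and 11.8, 21.9 and 9.01 in the GI neurons, and did not separate the classes. Within this group Acot5 is named after its values were seen, because 2 GI neurons held most of it: 3.26 FPKM in GI neuron 2 and 8 FPKM in GI neuron 5, against at most 0.731 FPKM in the other neurons.

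Electron transfer had the member with the highest mean level and the smallest spread. Etfb, the β subunit of the electron transfer flavoprotein, had 316, 348, 323 and 373 FPKM in the GE neurons and 340, 249 and 380 FPKM in the GI neurons, a log2 ratio of 0.07. Its partner Etfa, the α subunit, was lower and more variable, at 20.7, 35.9, 52.5 and 58.6 FPKM in the GE neurons and 19.9, 8.33 and 40.3 FPKM in the GI neurons. GI neuron 7 lay within the GE range, and the other GI neurons lay below it. The log2 ratio of 0.85 became 1.5 without GI neuron 7, where the classes did not overlap, and 0.46 without GI neuron 5. Etfb was 6.15 to 29.9 times Etfa within a neuron. Etfdh, which passes the electrons on to ubiquinone, had class levels of 4.68 and 3.27 FPKM.

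Single neurons set the range of several members. The highest over the lowest neuron was at least 4-fold, after adding 1 FPKM to each, for Acadvl, Acot1, Acot8 and Etfa (4 of 20, against 23.9% of all genes above the filter). The spread was smallest for Etfb, at 1.53-fold, and reached 6.83-fold for Acadvl, 7.03-fold for Etfa and 11-fold for Acot1, all without an added FPKM. The lowest Acot1 value, 1.01 FPKM in GI neuron 7, had 1.99 implied fragments and an interval from 0 to 2.45 FPKM. GE neuron 8 held the highest value of 10 of the 20 members (50%, against 25.3% of all genes above the filter) and the lowest of none (0%, against 9.71%). GE neuron 4 held the highest value of 4 (20%, against 9.6%), and GE neuron 6 of none (0%, against 9.65%). The other members were highest in GE neuron 1 (2, or 10%, against 12.6%), GI neuron 2 (1, or 5%, against 17%), GI neuron 5 (1, or 5%, against 9.77%) and GI neuron 7 (2, or 10%, against 16.1%). The members took 0.172% of the summed FPKM in GE neuron 8 and 0.162% in GI neuron 7, against 0.0998% to 0.121% in the other 5. GE neuron 8 also had the highest summed astrocyte and microglia markers of the 7 neurons, at 2671 and 2264 FPKM, and their part in its values was not tested.

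**Figure D5:**
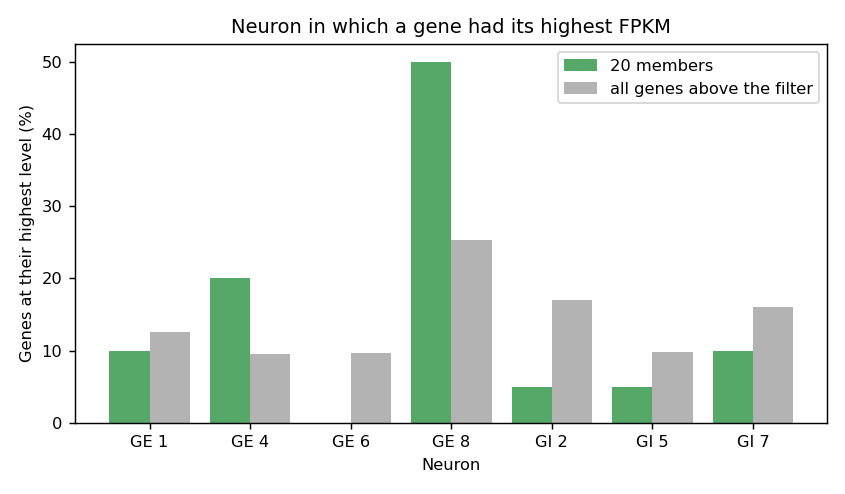
Share of genes, in percent, whose highest FPKM among the 7 neurons fell in a given neuron, for the 20 members (green) and for all 6417 genes above the level filter (grey). GE neuron 8 held the highest value of 50% of the members and of 25.3% of all genes, and GE neuron 6 of 0% and 9.65%.

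Of 60 further genes of the pathway (transporters, thiolases, binding proteins, regulators and ketone body enzymes), 59 were found and 30 passed the filter. GE neurons had the higher level for 22 of these and GI neurons for 8 (73.3% in GE, against 51.9% of all genes), with a median log2 ratio of 0.18 and 0 past 2-fold in either direction (against 2.46% and 2.17% of all genes). Every GE neuron lay above every GI neuron for 1 of the 30, near the 2.24% of all genes, and this was Acat1, the mitochondrial acetoacetyl-CoA thiolase of ketone body and isoleucine metabolism. It had 31.2, 31.2, 26.4 and 36.0 FPKM in the GE neurons and 23.0, 15.9 and 25.5 FPKM in the GI neurons, a log2 ratio of 0.52. The highest levels were those of the acyl-CoA binding protein Dbi (4329 to 7420 FPKM), the fatty acid binding proteins Fabp5 (616 to 890 FPKM), Fabp3 (250 to 546 FPKM) and Fabp7 (138 to 283 FPKM), and the sterol carrier Scp2 (84.6 to 110 FPKM). Ppara and Ppargc1a, a nuclear receptor and a coactivator that raise oxidation genes in other tissues, are named after their values were seen and had at most 0.482 and 2.77 FPKM.

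Depth and cell type markers bear on all of these values. The 7 libraries had 6144126 to 14900568 reads and listed 12750 to 14341 genes, among them 36 to 44 members, while GI neuron 3 had 126914 reads, 6391 genes and 21 members. All 9 of the neuron markers found were listed in all 7 neurons (1937 to 2590 FPKM summed). The 10 vlVMH markers summed to 431 to 685 FPKM in GE and 376 to 493 FPKM in GI neurons. Most of this was Tac1 (348 to 637 FPKM), and 3 of the 10 passed the filter. Esr1 itself, the gene of ERα, was at 0 in GE neurons 6 and 8 and GI neuron 5 and at most 1.04 FPKM elsewhere. Markers of other cells were present in all: 10 astrocyte genes summed to 1056 to 2671 FPKM in GE and 1185 to 1910 FPKM in GI neurons, 10 oligodendrocyte genes to 486 to 1158 and 333 to 654 FPKM, and 10 microglia genes to 978 to 2264 and 1386 to 1803 FPKM. The 8 endothelial genes summed to at most 23.9 FPKM, with Cdh5 at 0 in 6 of the 7 neurons, and the 6 ependymal and tanycyte genes found to 131 to 208 FPKM. The 8 arcuate genes, markers of the neighbouring nucleus, summed to 11967 to 16074 FPKM in GE and 12630 to 19443 FPKM in GI neurons. The summed blood cell markers did not overlap, with 4 genes found at 947 to 2240 FPKM in GE and 2906 to 5054 FPKM in GI neurons, higher in the GI class. Of these genes Beta-s alone, a hemoglobin gene, parted the classes by itself (1 of the 3 above the filter, against 1.84% of all genes above it). Of the 8 astrocyte genes above the filter, GE neurons had the higher level for 6 and GI neurons for 2. Among all genes above it, 51.9% were higher in GE neurons. Aldh1l1 alone of the 8 parted the classes (1 of 8, against 2.24% of all genes), at 4.21 to 11.3 FPKM in GE and 0 to 4.08 FPKM in GI neurons. The part of these markers in the members' values was not tested.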

How the data were processed

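Single ERα vlVMH neurons were prepared with SMART-Seq v4 and Nextera kits and sequenced from both ends on an Illumina instrument, per the labels. For each neuron the authors deposited a table of FPKM values, listing only genes above 0, with the bounds of an interval of unstated level. Their tool, annotation and build were not given in the sources used here. Trim Galore 0.4.1, STAR 2.5.3a, featureCounts 1.6.0 and GRCm38.p6, which the submitters' processing notes name, belong to counts not used here. A quality table deposited by the authors gives the reads and the mapped fraction of each neuron (0.482 to 0.773, and 0.403 in GI neuron 3). Each sample label also carries a line naming human cells, against its mouse organism and gene names, and groups were taken from the titles.

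Gene names with several rows (110) and those that a spreadsheet had made into dates (24) were dropped. Positions in the tables matched GENCODE vM21 within 1000 bp for 595 of 14852 names, so positions given here are those of GENCODE or RefSeq. Fragments were read from the upper arm of an interval, taken as 2 SD of counting error, and cover counting error only. Names followed a rule: members past the filter with a 2-fold or non-overlapping difference, the 8 of the highest mean and the highest of each role, and, of the other pathway genes, those past the same limits and the 5 highest. Acadm, Acads, Acadvl, Acot1, Acot5, Acot6, Acot9, Cpt1a, Cpt1b, Cpt2, Ehhadh, Etfdh and Hadh are named after their values were seen. Single values of 1 member are not reported here, and it stays in the counts and sums. Members, lists and rules were chosen with earlier results of these data known. Alternatives were class medians, GI neuron 3 added, each neuron left out, other pseudocounts and filters, and 3 other scalings. Python 3.11.15, numpy 2.4.6, pandas 2.3.3 and matplotlib 3.10.9 were used, and the computation was tested on simulated data.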

Additional observations from a re-analysis of the deposited data

Results flagged for a closer look

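GE neuron 8 stood apart from the other 3 GE neurons for 3 of the 29 items checked (the 20 members above the filter and 9 sums), by the gap to its nearest neighbour over the range of the 4 neurons. It had 42.7 FPKM for Acadvl (gap 0.94 of the range), 22.5 FPKM for Acot9, a mitochondrial thioesterase (0.898), and 14.5 FPKM for Hadha (0.886), each past Dixon's 95% limit for 4 samples. Chance flags about 1 in 20 groups, and the GI class, with 3 neurons, was not checked. Without GE neuron 8 the log2 ratio of Hadha was 0.89 and its classes did not overlap.

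In GI neuron 3, which entered no comparison, 8 members were listed above their level in every other neuron. For 2 of these the authors' intervals imply over 3 fragments, Etfb at 442 FPKM (9 fragments) and Acsl3 at 50.1 FPKM (3.98 fragments).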

How the results depend on the processing

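No paired analysis was possible because the neurons are not assigned to the 2 mice. Of the 17 alternatives run, those that changed only the filter gave single members no new ratio. Under the others the 3 members past 2-fold (Acsl6, Hadha and Acot8) kept their direction. Leaving out each neuron in turn gave 0 to 3 members at 2-fold higher in GE neurons, 0 to 1 higher in GI neurons, 1 to 3 with every GE neuron above every GI neuron and 0 to 2 with the opposite. Over all genes above the filter these shares ran from 2.21% to 4.9%, 2.17% to 3.91%, 3.18% to 7.71% and 2.88% to 6.17%. Higher by 2-fold in GE neurons were 1 member without GE neuron 4 or 8 and 0 without GI neuron 2, and in GI neurons 0 without GE neuron 6 or GI neuron 7. Every GE neuron lay above every GI neuron for 2 members without GE neuron 1, GE neuron 6 or GI neuron 5 and for 3 without GI neuron 7 (Cpt1c, Etfa, Hadha), and the opposite held for 1 without GE neuron 1, GI neuron 2 or GI neuron 5 and for 2 without GE neuron 8 (Acot9, Hadh). Acsl6 and Hadha both passed 2-fold higher in GE neurons in the main setting. With a pseudocount of 5 FPKM 0 members did (against 0.919% of all genes above the filter). A filter of 20 FPKM left 8 members, neither Acsl6 nor Hadha among them, and 0 did (against 1.02%). Only 1, Acsl6, did under scaling without the mitochondrial genome (against 2.46%), without the 100 highest genes (2.44%) or by median of ratios (2.15%). Higher in GI neurons by 2-fold were 2 members by class medians (Acot8, Hadh, against 2.88%) and 0 with a pseudocount of 5 FPKM (against 1.06%). With no filter there were 2 of 46 (Acot5, Acot8, against 3.28%). No member parted the classes in the GE direction with a filter of 20 FPKM (0 of 8, against 1.53%). In the GI direction 1 of 46 (Acot6) did with no filter (against 1.66%), on at most 1.99 implied fragments in a neuron. The median log2 ratio of the members ran from -0.09 to 0.18 and that of their sum from -0.08 to 0.15. Of 280 single-member ratios recomputed for the 20 members, 276 moved by less than the spread between single neurons within the classes. The other 4 moved by more, all with GI neuron 3 added: Acot1 to -0.82, Acot13 to 0.28, Acsl3 to -0.46 and Ech1 to 0.40. Leaving out a neuron shifts a class mean by only part of that spread, so this count says little about stability. The ratio of Acadvl counted as unmoved while running from -0.89 to 1.04 as each neuron was left out. The sign changed in 39 of the 280, none of them of a member past 2-fold in the main setting. Depth limits the low members: many, though not all, values under 5 FPKM rest on few fragments, and a gene not listed in a neuron may be present below its depth.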
